A study of Mus musculus with 4 samples.

Results

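The proteasome subunit genes were examined for binding of INO80, the ATPase of a nucleosome remodelling complex, in mouse spermatocytes at early zygotene. The 40 genes were listed by name, with earlier results of the same peaks known, and cover the alpha ring (8 genes), the beta ring (7 constitutive genes and 4 of the immuno- and thymoproteasome), the base (9), the lid (8) and the activators (4). All 40 were found among the 21887 protein-coding genes of chromosomes 1 to 19, X and Y in the gene table. A gene was counted when a deposited peak lay within 1 kb of it. INO80 chromatin immunoprecipitation and sequencing (ChIP-seq) libraries numbered 2, as did input libraries. Cells of both groups came from testes of DBA/2J x C57BL/6J F1 mice. Fertilysin injections ran from postnatal day 2 over 7 days and kept germ cells at the spermatogonial stage until retinoic acid was given at 9 dpp (days post partum). Spermatocytes were taken 8 days after retinoic acid and enriched on 28% Percoll. The number of animals behind each library is not given in the labels, so differences between replicates may be partly technical. No expression was measured, so the labelled cell type could not be checked against marker levels.

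The proteasome degrades ubiquitin-tagged proteins. Its barrel-shaped core particle is built from rings of alpha subunits, which gate the entrance, and rings of beta subunits, some of which cut the substrate. A regulatory particle caps the core: the ATPases of its base unfold the substrate, and its lid removes the ubiquitin chain. Male germ cells make a variant, the spermatoproteasome, in which the alpha subunit encoded by Psma8 takes the place of the one encoded by Psma7 and which is often capped by the activator encoded by Psme4.

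Uniquely mapped reads numbered 98100000 and 82600000 in INO80 replicates 1 and 2, and 70400000 and 39600000 in inputs 1 and 2, rounded as deposited. The authors called 5123 peaks in replicate 1 and 7836 in replicate 2, with a median fold enrichment of 3.23 and 3.59, and kept 2847 peaks in a set that was reproducible between the replicates. Fold enrichment is the peak caller's own value for a peak, and ranks are given within a replicate's own list. Of the replicate 1 peaks 7.83% overlapped no replicate 2 peak, and of the replicate 2 peaks 40.6% overlapped no replicate 1 peak. The peak names carry different dates, so replicate and date cannot be told apart.

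Psma7 was the 1 proteasome gene whose promoter carried a peak in both replicates and in the reproducible set. Because the binding data bear on promoters, the promoter of Psma7 is shown with those of 4 ATPase genes of the base. Psmc2 and Psmc6 had a peak over the promoter in replicate 1 alone, Psmc4 had one in replicate 2 alone, and Psmc5 had none. Sequences are RefSeq promoter windows of GRCm38.p6, 250 bases before to 50 after the gene's start, 5′ to 3′ on the gene's strand. Capitals mark matches to the searched motifs on either strand.
Psma7 (chr2:180042415-180042714, minus strand): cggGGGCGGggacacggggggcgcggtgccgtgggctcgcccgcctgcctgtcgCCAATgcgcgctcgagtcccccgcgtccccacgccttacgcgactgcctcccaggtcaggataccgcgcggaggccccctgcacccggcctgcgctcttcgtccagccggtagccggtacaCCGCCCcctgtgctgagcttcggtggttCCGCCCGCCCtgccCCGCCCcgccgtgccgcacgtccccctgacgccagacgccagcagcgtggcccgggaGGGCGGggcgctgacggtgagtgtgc
Psmc2 (chr5:21785025-21785324, plus strand): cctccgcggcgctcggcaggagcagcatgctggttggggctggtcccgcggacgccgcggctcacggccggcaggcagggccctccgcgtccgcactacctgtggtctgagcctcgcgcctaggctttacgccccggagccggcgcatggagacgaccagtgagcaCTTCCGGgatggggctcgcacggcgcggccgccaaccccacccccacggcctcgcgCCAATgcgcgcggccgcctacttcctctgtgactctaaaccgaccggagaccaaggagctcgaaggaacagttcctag
Psmc4 (chr7:28050043-28050342, minus strand): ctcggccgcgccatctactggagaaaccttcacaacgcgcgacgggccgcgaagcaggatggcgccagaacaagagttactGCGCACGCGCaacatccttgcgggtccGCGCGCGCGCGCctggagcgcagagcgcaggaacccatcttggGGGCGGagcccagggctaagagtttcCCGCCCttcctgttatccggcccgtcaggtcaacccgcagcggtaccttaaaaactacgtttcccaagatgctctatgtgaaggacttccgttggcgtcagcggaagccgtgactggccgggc
Psmc6 (chr14:45329574-45329873, plus strand): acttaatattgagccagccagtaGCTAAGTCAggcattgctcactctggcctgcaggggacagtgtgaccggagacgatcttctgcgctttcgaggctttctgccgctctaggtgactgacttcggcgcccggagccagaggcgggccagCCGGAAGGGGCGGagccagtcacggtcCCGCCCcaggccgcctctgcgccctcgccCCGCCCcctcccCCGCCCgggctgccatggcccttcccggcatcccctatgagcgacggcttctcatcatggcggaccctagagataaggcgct
Psmc5 (chr11:106255935-106256234, plus strand): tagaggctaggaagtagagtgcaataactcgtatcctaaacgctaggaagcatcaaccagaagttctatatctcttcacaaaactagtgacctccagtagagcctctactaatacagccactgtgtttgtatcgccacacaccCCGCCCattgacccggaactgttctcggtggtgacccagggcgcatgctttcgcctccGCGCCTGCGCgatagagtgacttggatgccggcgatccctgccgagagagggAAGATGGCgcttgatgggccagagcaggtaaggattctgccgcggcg
In the Psma7 window the capitals were 6 GC boxes, a pair of them overlapping, and a CCAAT box. Psmc2 held an ETS motif 84 bases before its start and a CCAAT box. Psmc4 held 3 NRF1 motifs, a pair of them overlapping, and 2 GC boxes. Psmc6 held an ARE, an ETS motif and 4 GC boxes. Psmc5 held a GC box, an NRF1 motif and a YY1 motif that begins 3 bases after the start.

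INO80 peaks were sparse at the 40 genes. In replicate 1 a peak lay within 1 kb of 5 of the 40 proteasome genes (12.5%), against 23.5% of all protein-coding genes. In replicate 2 the count was 9 of 40 (22.5%), against 32.4% of all genes. Both replicates had a peak at 2 of 40 (5%), Psma7 and Psme2, against 21.6% of all genes. Either replicate had one at 12 of 40 (30%), against 34.4%, and 28 genes had none. By position, 2 of 40 (5%), Psma7 and Psmb3, lay within 1 kb of a reproducible peak, against 13.5% of all genes. By the authors' own nearest-gene assignment within 1 kb of a transcription start site (TSS), Psma7 was the 1 of 40 (2.5%), against 9.93%. No test was applied to these shares, because the genes were chosen with these peak lists known. Gene length also differs: its median was 10817 bp for the proteasome genes and 17169 bp for all genes, and a longer gene offers a longer stretch to peaks.

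**Figure D1:**
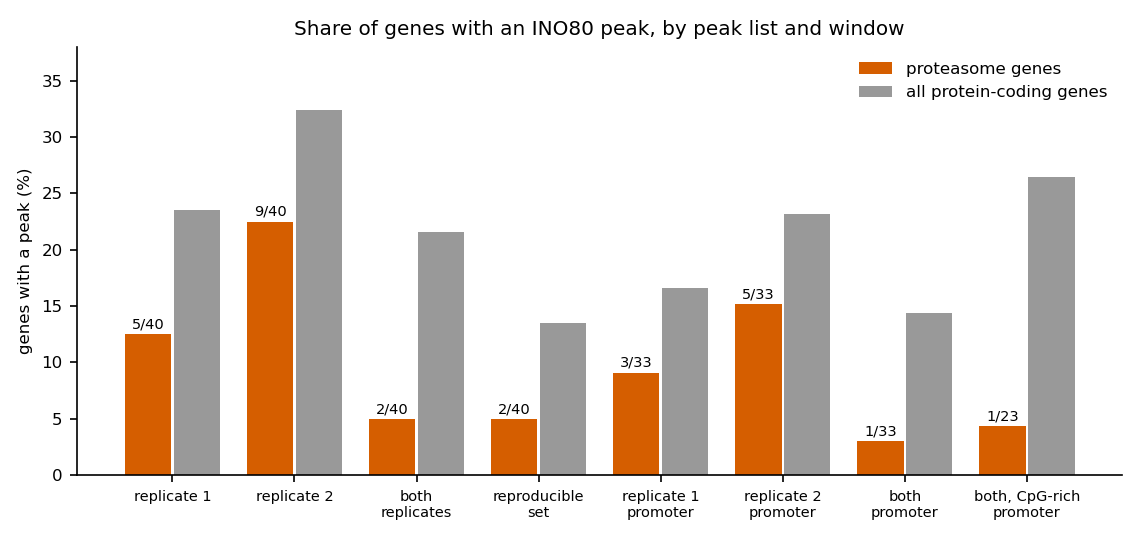
Share of genes (%) with an INO80 peak, for the proteasome genes (orange, with counts) and all protein-coding genes (grey), by peak list. The first 4 pairs count peaks within 1 kb of the gene and the last 4 peaks over the promoter window. In each pair shown the proteasome bar is the lower one, for example 2 of 40 (5%) against 21.6% with a peak in both replicates.

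Peaks were then counted over the promoter window, which has the same length for every gene. RefSeq promoters were matched for 33 of the 40 genes. Without an entry were Psma8, Psmb1, Psmb2, Psmb7, Psmc3, Psmd3 and Psmd7. Replicate 1 peaks touched the promoter of 3 of 33 members (9.09%), against 16.6% of 17492 genes with an entry, and replicate 2 peaks that of 5 of 33 (15.2%), against 23.2%. Psma7 alone was touched in both (3.03%), against 14.4% of all genes, and it alone lay under a reproducible peak (3.03%), against 10.9%.

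Most proteasome promoters had the base composition that goes with INO80 peaks elsewhere in these data. With CpG-rich taken as a CpG observed over expected of at least 0.6 and a G+C content of at least 50%, 23 of 33 members (69.7%) had such a promoter, against 48.3% of all genes. Of all genes with a peak over a promoter window in either replicate, 83.5% were CpG-rich, against 35.5% of genes with a window that had no peak. A gene with windows of both kinds counts in both shares. Among CpG-rich genes, both replicates had a peak at 1 of 23 members (4.35%), against 26.5% of all genes. For replicate 1 the counts were 3 of 23 members (13%), against 30.7%, and for replicate 2 they were 2 of 23 (8.7%), against 39.9%. For the reproducible set they were 1 of 23 (4.35%), against 19.1%. Psmb9 fell just under the limit on its CpG ratio.

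Psma7 had a G+C content of 77.0%, the highest of the 36 member promoters and above 96.8% of all protein-coding promoters. Its CpG observed over expected was 0.928. The medians were 58.2% and 0.749 over member promoters, and 56.3% and 0.567 over all. The 3 lowest CpG ratios were 0.165 at the thymus gene Psmb11, 0.185 in 1 of the windows of the constitutive alpha subunit gene Psma6, and 0.192 at the immunoproteasome gene Psmb10. None of these genes had a peak. Psmc4 had the highest ratio, 1.12, with a peak in replicate 2 alone. Of the 7 members with a peak over a promoter window in either replicate, 4 (57.1%) had a CpG-rich promoter, against 19 of the 26 members without (73.1%). The order over all genes was the other way round, 83.5% against 35.5%. The split of the members leans on Psmb9, which had a peak and was counted as not CpG-rich just under the limit. With 7 members the difference is given as a description.

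**Figure D2:**
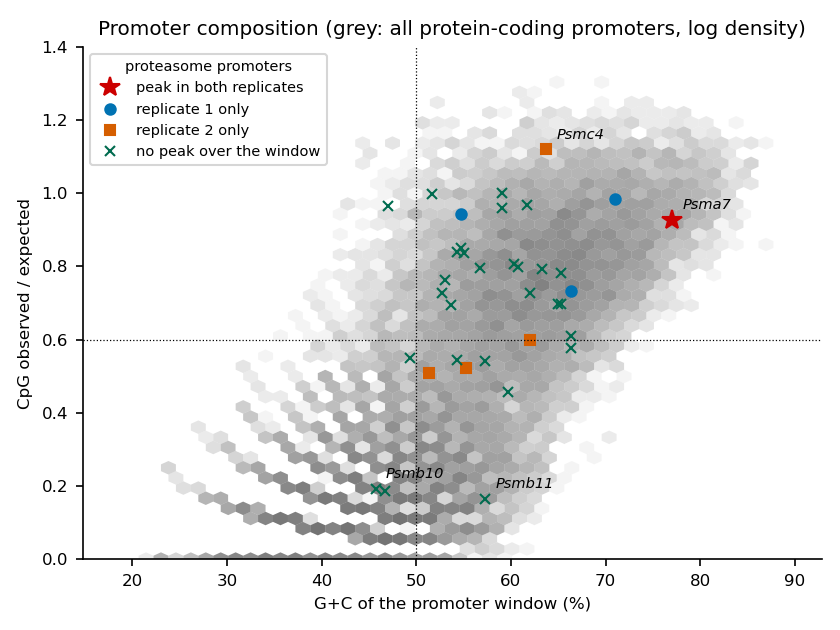
CpG observed over expected against G+C content (%) of promoter windows, with all protein-coding promoters as grey density on a log scale (4 promoters above 1.4 are not drawn) and the 36 windows of 33 proteasome genes as symbols by peak status. Dotted lines mark the CpG-rich limits of 0.6 and 50%. Psma7 (77.0%, 0.928) lies to the right of all other proteasome promoters, and many windows with no peak lie in the dense CpG-rich field.

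The alpha ring gave the strongest peak of the family and several genes with nothing near. At Psma7, which encodes a ubiquitous alpha subunit, the fold was 7.74 in replicate 1 and 11.5 in replicate 2. These ranked 15 of 5123 and 9 of 7836 by fold, and −log10 q was 32.6 and 75.8. Both peaks were broad, at 2116 and 2906 bp, against list medians of 765 and 1067 bp. In the reproducible set the peak spanned chr2:180040476-180044022, 3547 bp, wider than 90.5% of that set.

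Psma7 shares its promoter with Ss18l1, which encodes a transcriptional coactivator of neuronal BAF remodelling complexes. Both genes start from the same stretch in opposite directions, with starts 19 bp apart. The replicate 1 peak reached 937 bp into Psma7 and 1159 bp into Ss18l1, and the replicate 2 peak 1386 and 1500 bp. Centres of the replicate peaks lay 120 and 66.5 bp upstream of the Psma7 TSS, on the Ss18l1 side. The reproducible peak extended farther into Psma7 (1988 bp) than into Ss18l1 (1539 bp), and its centre lay 215 bp downstream of the Psma7 TSS in the authors' deposited table. That table names Psma7 as the nearest gene, whereas the transcript behind its promoter class, NM_178750, is one of Ss18l1. By the replicates' own centres the nearer start was that of Ss18l1, at 102 and 47.5 bp.

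Psma8, the spermatocyte paralogue of Psma7, had no peak within 1 kb in either list. Its nearest peaks lay 20850 bp away in replicate 1, 20884 bp in replicate 2 and 20626 bp in the reproducible set. Psma3 had a narrow peak of 399 bp with a fold of 2.53 in replicate 2 alone, centred 293 bp downstream of a TSS and above 7.55% of that list by fold. Psma1, Psma2, Psma4, Psma5 and Psma6 had none. Psma2 lay farthest from a peak of all 40 genes in both replicate lists, 657801 bp in replicate 1 and 657535 bp in replicate 2. Psma5 lay outside the 1 kb limit, 3711 and 3364 bp from peaks of fold 3.45 and 4.05. Those peaks were within 1 kb of Sort1, a sorting receptor gene.

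**Figure D3:**
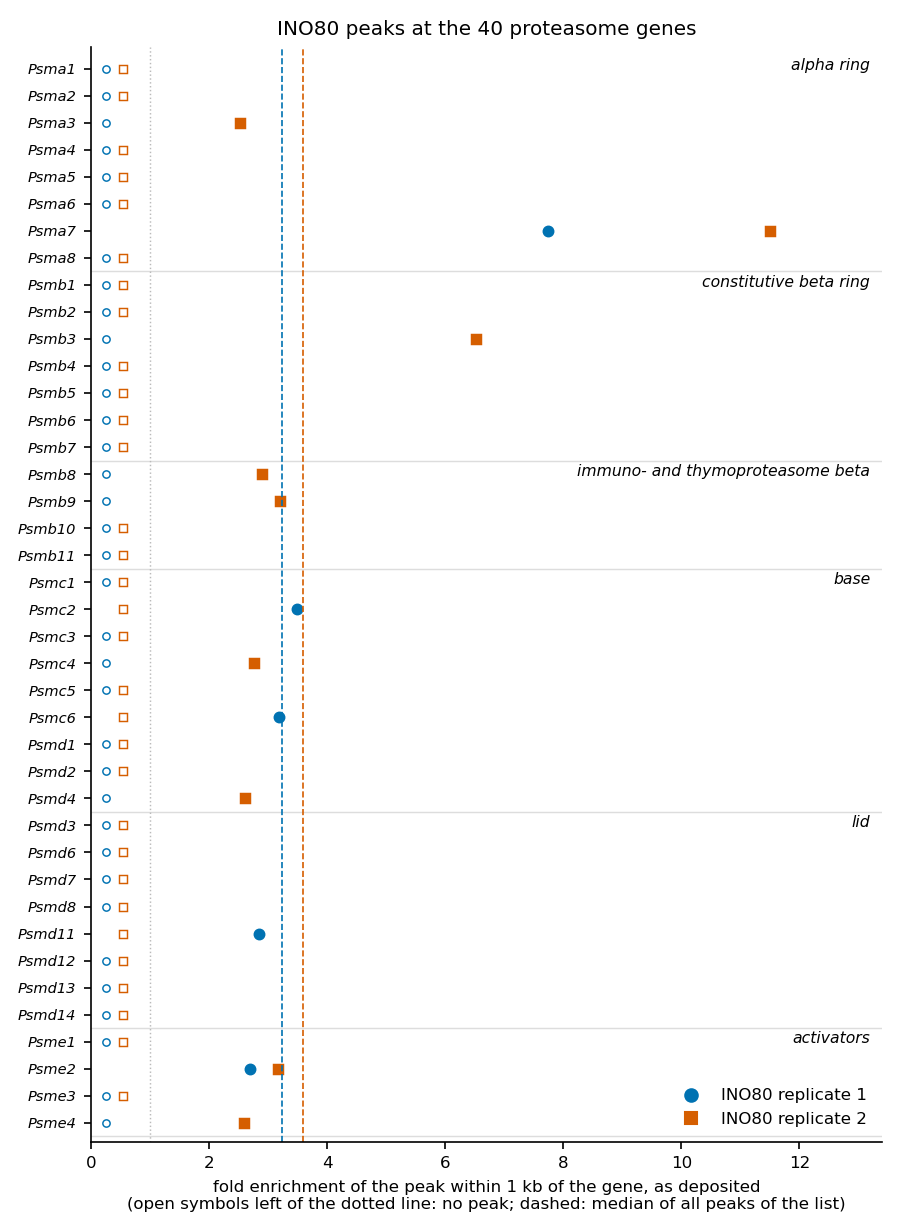
Deposited fold enrichment (x axis) of the peak within 1 kb of each of the 40 proteasome genes (rows, grouped by place in the complex), replicate 1 as blue circles and replicate 2 as orange squares. Open symbols left of the dotted line mark genes with no peak, and dashed lines the median fold of each list (3.23 and 3.59). Psma7 stands far to the right in both replicates, and apart from Psma7 and the replicate 2 peak near Psmb3 (6.52) the values lie between 2.53 and 3.49.

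Among the constitutive beta subunits, 6 of 7 genes had no peak in either replicate, whereas 34.4% of all genes had one. The 6 include the genes of all 3 catalytic subunits, Psmb5 (chymotrypsin-like), Psmb6 (caspase-like) and Psmb7 (trypsin-like). The others were Psmb1, Psmb2 and Psmb4. Psmb3, a structural subunit gene, was counted through its neighbour. The replicate 2 peak there had a fold of 6.52 and a width of 3827 bp and ended 339 bp before Psmb3, while it overlapped Pcgf2, a Polycomb gene. In replicate 1 the peak at Pcgf2 had a fold of 4.38 and lay 2705 bp from Psmb3, outside the window. The reproducible peak, chr11:97699108-97703126, ended 308 bp before Psmb3 and was assigned by the authors to Pcgf2. No list had a peak over the Psmb3 promoter window.

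Immunoproteasome genes, whose beta subunits replace the constitutive catalytic ones in immune and inflamed cells, had weak peaks in replicate 2 alone. At Psmb9 the replicate 2 peak had a fold of 3.20 and a width of 1436 bp, above 36.7% of that list. It covered the whole promoter window and the start of Tap1, the peptide transporter gene that begins 226 bp away in the opposite direction. Psmb8, at the other end of Tap1, had a 604 bp peak of fold 2.89 that ended 49 bp before the gene and covered 67.3% of its promoter window. The nearest replicate 1 peaks lay 59083 bp from Psmb9 and 63184 bp from Psmb8. Psmb10 and the thymus gene Psmb11 had no peak.

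Of the 9 base genes 4 had a peak in either replicate, against 34.4% of all genes, and none in both, against 21.6%. Among the 4 were 3 ATPase genes, Psmc2, Psmc4 and Psmc6. At Psmc2 the replicate 1 peak had a fold of 3.49, above 62.9% of its list, and a width of 1889 bp. It spanned chr5:21784845-21786733 and covered the near end of Dnajc2, a ribosome-associated chaperone gene 11 bp away. Replicate 2 had no peak within 359532 bp of Psmc2. Of the 401 replicate 1 peaks that overlapped no replicate 2 peak, 4 were at least as wide as this one, and so were 264 of all 5123. Psmc6 had a 458 bp peak of fold 3.18 in replicate 1 alone, over 60.7% of its promoter window, and its nearest replicate 2 peak was 10648 bp away.

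In replicate 2 alone, Psmc4 had a 404 bp peak of fold 2.76 centred 2 bp from its TSS and over 83.3% of the promoter window. Psmd4, a ubiquitin receptor gene counted here with the base, had a 373 bp peak of fold 2.61, also in replicate 2 alone. The ATPase genes Psmc1, Psmc3 and Psmc5 and the scaffold genes Psmd1 and Psmd2 had none. Psmc1 lay 3470 and 3471 bp from peaks of fold 2.58 and 2.39 with no other gene within 1 kb. Of the 6 genes of the ATPase ring, 2 had a peak in replicate 1, against 23.5% of all genes. In replicate 2 Psmc4 alone had one, against 32.4% of all genes. None had one in both replicates, against 21.6%, and 6 genes are too few to set the ring apart.

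Among the lid genes a peak in either replicate was found at 1 of 8, against 34.4% of all genes. This was Psmd11, in replicate 1 alone, with a fold of 2.85 and a width of 495 bp, centred 360 bp downstream of its TSS. In replicate 2 the nearest peak to Psmd11 lay 3049 bp away at Cdk5r1 and had a fold of 5.97. Psmd14, the gene of the deubiquitinating enzyme of the lid, had none, nor had Psmd3, Psmd6, Psmd7, Psmd8, Psmd12 and Psmd13. The replicate 2 peak 4568 bp from Psmd14 had a fold of 3.62 and lay at Tbr1.

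Activator genes had a peak in either replicate at 2 of 4, against 34.4% of all genes. Psme2, which encodes a subunit of an interferon-inducible activator ring, had peaks of fold 2.69 and 3.17 in replicates 1 and 2, 449 and 749 bp wide. They began 517 and 337 bp beyond the Psme2 gene and overlapped the start of Rnf31, a ubiquitin ligase gene that lies 612 bp away, and neither touched the Psme2 promoter window. No reproducible peak lay within 572153 bp of Psme2. Psme4, the activator of the spermatoproteasome, had a 1165 bp peak of fold 2.59 in replicate 2 alone, centred 1015 bp downstream of its TSS. Psme1, the partner of Psme2, and Psme3, the gene of a nuclear activator, had none.

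**Figure D4:**
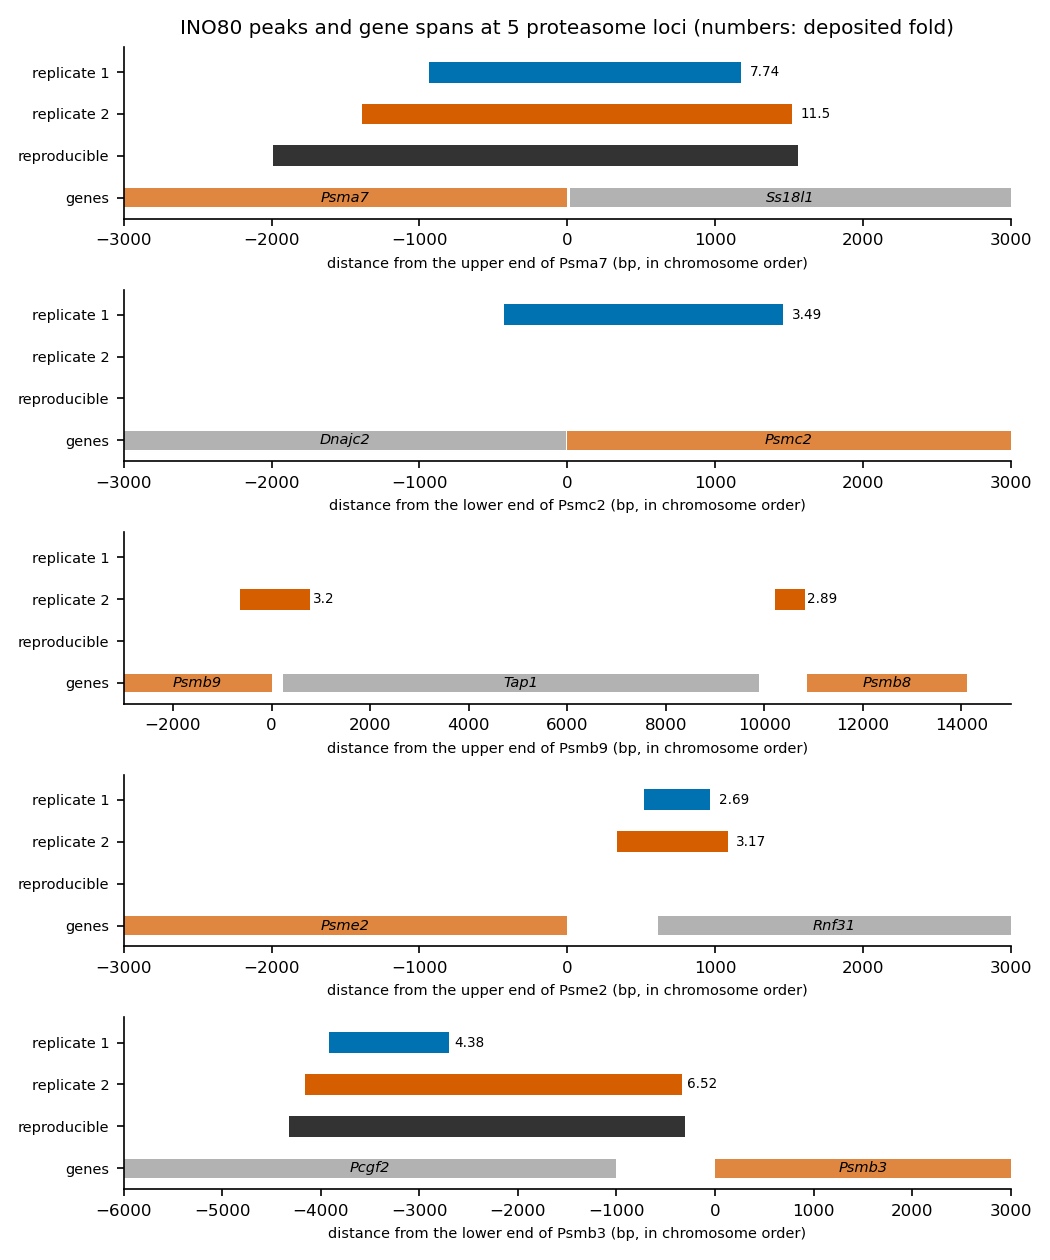
INO80 peaks (bars, with deposited fold) in replicate 1, replicate 2 and the reproducible set above gene spans at 5 loci; the x axis is the distance in bp from 1 end of the named proteasome gene, in chromosome order, with proteasome genes in orange and other genes in grey. The Psma7 peaks (7.74 and 11.5) lie across both starts, whereas those near Psme2 lie at least 337 bp from that gene and those near Psmb3 at least 308 bp.

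By part, a peak in either replicate was found at 5 of 19 core particle genes, 4 of 9 base genes, 1 of 8 lid genes and 2 of 4 activator genes, against 34.4% of all genes. With so few genes in each part, these counts are given as a description, and no part is set apart by them. In the replicate lists, the peaks counted nearest to the 1 kb limit lay 517 and 337 bp from Psme2 and 339 bp from Psmb3, and the first ones beyond it 2705 bp from Psmb3 and 3049 bp from Psmd11.

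Across the family, 6 of the 12 genes with a peak shared it with a neighbouring gene within 1 kb (Psma7, Psmb3, Psmb8, Psmb9, Psmc2 and Psme2). At the other 6 the peak had no second gene nearby and was found in 1 replicate only. Folds there were 2.53 to 3.18 and widths 373 to 1165 bp. The shared peaks at Psmb8, Psmb9 and Psmc2 were also found in 1 replicate only. Those near Psme2 and Psmb8, with folds of 2.69, 3.17 and 2.89, fell in the same fold range. How often peaks are shared in this way over all genes was not counted, so the split only describes these 12 genes. Within their lists, 3 of 5 member peaks in replicate 1 and 7 of 9 in replicate 2 were below the list's median fold. Member peaks without an overlapping peak in the other replicate numbered 3 of 5 in replicate 1, against 7.83% of all peaks of that list, and 6 of 9 in replicate 2, against 40.6%.

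Promoters that start head to head with another protein-coding gene, within 1 kb, were found for 6 of 33 members (18.2%), against 8.48% of all genes with an entry. Their partners were Ss18l1 (Psma7), Mrpl32 (Psma2), Tap1 (Psmb9), Ftsj3 (Psmc5), Sirt3 (Psmd13) and Rnf31 (Psme2). Both replicates had a peak over the promoter at 1 of these 6 (16.7%), against 16.2% of all genes with such a partner, and at 0 of the other 27 members, against 14.2%. Psma2, Psmc5 and Psmd13, whose partners start 205, 101 and 85 bp away, had no peak. Dnajc2 has no entry in the promoter table, so Psmc2 stands among the 27 without a partner although Dnajc2 lies 11 bp away.

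Distances to the nearest peak did not follow the counts. The median distance was 26326 bp for the 40 members and 65109 bp for 21631 genes of chromosomes 1 to 19 and X in replicate 1. In replicate 2 it was 19198 and 28712 bp, and for the reproducible set 112349 and 173304 bp. Proteasome genes thus lay nearer to peaks at the median but had fewer within 1 kb.

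Sequence motifs of housekeeping promoters were searched in the promoter windows on both strands, and a match is given as a description only. ETS, CCGGAAG, was in 12 of 33 members (36.4%), against 12.9% of 17492 genes. It was found at Psma6, Psmc1, Psmc2, Psmc6, Psmd2, Psmd4, Psmd6, Psmd11, Psmd12, Psmd13, Psme3 and Psme4. NRF1, searched as a pair of GCGC runs with 2 bases between them, was in 6 of 33 (18.2%), against 9.61%, and YY1, AAGATGGC, a factor that can associate with the INO80 complex, in 3 of 33 (9.09%), against 3.57%. None of the 3 genes with a YY1 match, Psma2, Psmb6 and Psmc5, had a peak within 1 kb in either replicate. Of all protein-coding genes, with or without a match, 34.4% had such a peak. Peaks at all genes with a YY1 match were not counted, and 3 genes are too few for a reading. A GC box, GGGCGG, was in 19 of 33 (57.6%), against 49.2%, and a CCAAT box, CCAAT, in 13 (39.4%), against 42.3%. The antioxidant response element (ARE), searched as TGACNNNGC, through which NFE2L1 and NFE2L2 act on proteasome genes, was in 5 of 33 (15.2%), against 14.8%. The cAMP response element, TGACGTCA, was in 0 of 33, against 2.54%. The ETS, NRF1, GC box and cAMP motifs contain CpG, and 69.7% of members were CpG-rich, against 48.3% of all genes. Motif shares among CpG-rich genes alone were not counted. In the printed sequences a pair of GC boxes overlaps in Psma7 and a pair of NRF1 matches in Psmc4, and a GC box follows the ETS motif of Psmc6 without a gap.

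Other genes of the ubiquitin and proteasome pathway were counted in the same way. Of 35 listed, 34 were found in the gene table (Paaf1 was not matched). Replicate 1 had a peak within 1 kb of 9 of 34 (26.5%), against 23.5% of all genes, and replicate 2 of 10 (29.4%), against 32.4%. Both replicates had one at 6 (17.6%), against 21.6%, and the reproducible set at 3 (8.82%), against 13.5%. The 3 were Nfe2l2, Ecpas and Psmg2. Nfe2l2 encodes the stress-responsive factor that acts through AREs and had folds of 3.24 and 4.23, with the reproducible peak centred 523 bp from the TSS. Ecpas, a proteasome adaptor gene, had folds of 3.13 and 4.91. The peak by Psmg2, an assembly chaperone gene, had folds of 4.41 and 4.33 and was assigned by the authors to Cep76. Psmf1, a proteasome inhibitor gene (3.4 and 3.13), and Vcp, the unfoldase gene (3.27 and 2.87), had a peak in both replicates but no reproducible peak. Either replicate had a peak at 13 of 34 (38.2%), against 34.4% of all genes. By role, these were 2 of 8 assembly factors, 4 of 8 other subunits and bound enzymes, and 1 of 4 regulators. The rest were 5 of 9 shuttle and unfoldase genes and 1 of 5 genes of ubiquitin and its activating enzyme. Uchl5, whose product is a deubiquitinase of both the proteasome and the INO80 complex, had a replicate 2 peak of fold 2.78 that also lay within 1 kb of Ro60, and none in replicate 1.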

How the data were processed

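Peaks came from the authors as a broad peak list per INO80 replicate, deposited with a fold ratio, a −log10 p, a −log10 q and a score (10 times the −log10 q) per peak. A deposited table holds the peak set of both replicates, with the nearest gene and its distance but no fold; its title sets the irreproducible discovery rate below 0.05. Tools named in the submitters' processing notes are MACS2 2.2.7.1 for peaks, by its output layout, and fastp, BWA, Picard, SAMtools and deepTools; which control was used is not stated there. Inputs enter through read numbers only. Genes and promoters were those of RefSeq for GRCm38.p6, the build the submitters name. Positions were made 1-based, and a peak counted at 1 bp or more within 1 kb (Python 3.11.15, pandas 2.3.3, numpy 2.4.6; tested on simulated peaks). Members and lists were chosen with earlier results of these data known; the CpG limits and head-to-head counts were added after seeing the peaks. All counts are therefore descriptions. All members are accounted for; other pathway genes were named if in the reproducible set or, up to 4, by mean fold in both replicates, and Uchl5 after its values were seen. An item that the naming rule covers is not reported here.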

Additional observations from a re-analysis of the deposited data

How the results depend on the processing

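Psma7 was the member assigned a reproducible peak within 1 kb of its TSS. The count of 1 stayed the same at 5 kb and with peaks of q 0.001 or less in both replicates. It was 0 at 200 bp, 3 at any distance and 2 by position. The count of 2 members within 1 kb of a reproducible peak was the same by gene ends, 1 with no window or over the promoter window, and 4 at 5 kb. The count of 2 members with a peak in both replicates was the same by gene ends and with an overlap of 50% between replicate peaks. It was 1 with no window, over the promoter window and at a q of 0.001 or of 1e-05, 7 at 5 kb, and 5 to 9 in a single replicate's list. The 6 other pathway genes with a peak in both replicates became 2 over the promoter window, 1 at a q of 1e-05, and 9 to 10 in a single list. The share of all genes was not counted at 5 kb, with no window, by gene ends, or at other distance, overlap and q settings. Whether peaks stayed sparser than over all genes at those settings was therefore not tested. Counts for the parts of the proteasome moved in 16 of 54 alternatives. The fold of all 14 member peaks was the same with the widest peak. No member had more than 1 peak in a replicate's list, so this choice could not change a fold. Over all 49943 genes of the table in place of protein-coding genes, the share with a peak in both replicates was 11.6%, against 21.6%. No paired analysis was possible because the input samples have no peak list here. A gene without a peak was not called, which does not show that INO80 was absent. Replicate 1, with 98100000 uniquely mapped reads, had 5123 peaks, and replicate 2, with 82600000, had 7836. The inputs differed in depth as well, and the control used is not stated. A part of depth in the number of peaks was not tested.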

Other observations

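The authors' deposited table assigns 2 further reproducible peaks to proteasome genes at a distance, and both are intergenic. A 1329 bp peak, chr11:30754569-30755897, lay 16542 bp from the TSS of Psme4 on the upstream side, with folds of 4.48 in replicate 1 and 4.83 in replicate 2. A 2261 bp peak, chr2:61655109-61657369, lay 55455 bp upstream of Psmd14, with folds of 4.58 and 5.84. Both peaks were stronger than the peaks near any member other than Psma7 and Psmb3, and nearest-gene assignment does not show that they act on these genes.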
